A study of Mus musculus with 3 samples.

Results

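Cdk5, its 2 dedicated activators Cdk5r1 and Cdk5r2, the kinases Gsk3a and Gsk3b, and their substrates Mapt, which encodes tau, and Dpysl2 were followed through 3 microarrays of adult mouse cortex. These 7 genes were listed by symbol, and their probes were found by matching each probe's transcript accession to RefSeq symbols. The match gave 8 probes for 6 of the genes, out of 41174 gene probes, and Gsk3a had no probe by this match. Both Gsk3b and Dpysl2 had 2 probes and the other 4 genes had 1 each. All 8 passed the filter on dim probes, which asked for a spot flagged reliable on at least 2 of 3 arrays and left 27530 probes. The genes were chosen on their mutant-over-WT ratios on these same arrays, so these ratios are given as a description, with no p-value; where calls of the fit over all probes are counted, nothing is read from them.

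The mutant animals were Gtf2i(+/Δex2), heterozygous for an allele whose name refers to loss of exon 2, and the controls were WT (+/+). Gtf2i encodes the transcription factor TFII-I. Both genotypes shared one mixed background, 98.4% C57BL/6J and 1.6% 129Sv/CD1, and cortex was taken at 16 weeks of age. Each of 3 Agilent 2-colour arrays set a pool of mutant RNA against a pool of wild-type RNA, each pool made from 3 to 5 mice. Replicates 1 and 3 carried the mutant pool in Cy3, and replicate 2 carried it in Cy5. Nothing in the labels says whether the arrays held separate pools, so the spread between arrays may be technical, and their number limits the precision. Sex and individual animals are not given in the labels.

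Cdk5 is a cyclin-dependent kinase that does not need a cyclin: in neurons it is switched on by binding the protein of Cdk5r1, known as p35, or that of Cdk5r2, known as p39. Calpain, a calcium-dependent protease, can trim these activators into longer-lived forms. Glycogen synthase kinase 3 is active at rest, is held down by AKT, and often phosphorylates sites that Cdk5 has primed. Tau, which binds and steadies axonal microtubules, and the collapsin response mediator encoded by Dpysl2, which binds tubulin in growing axons, are substrates of both kinases.

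Ratios are log2 of mutant over wild type. This direction is likely, not certain: the sample titles put the mutant first, the deposited readme gives folds with the test channel on top, and the Pro25G control spots, with median log2 ratios of 4.51, -4.54 and 4.58 on replicates 1 to 3, turn with the dyes. Intensities are the authors' normalized, background-subtracted values, for which the negative control spots had medians of 72.3 to 81.4 and the gene spots 204.1 to 206.1; the readme gives present above 200, marginal between 150 and 250 and absent below 150, ranges that overlap, and the Gsk3b channels between 200 and 250 were called marginal. Reliable spots made up 64.4% to 69.7% of gene spots. Gtf2i itself read -0.46, -0.44 and -0.52 at probe A_52_P442585 and -0.34, -0.34 and -0.26 at probe A_51_P499905, both past the threshold (limma adjusted p = 0.0026 and 0.00505; the second gave 0.0559 without replicate 1). The sources used here do not place these probes against exon 2, so they do not check the deletion.

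The probes of these genes read lower in the mutant cortex, by very different amounts. Of the 24 ratios, 8 probes on 3 arrays, 23 were below 0, and 7 probes were below 0 on all 3 arrays. Cdk5r2 had the lowest ratio, both Gsk3b probes and Mapt were intermediate, Cdk5 was slightly lower, and Cdk5r1 and Dpysl2 lay nearest to 0. The median over the 8 probes was -0.34, beside -0.002 over all tested probes. With limma and a Benjamini-Hochberg adjusted p under 0.05 over all 27530 probes, 5 of the 8 were called, all lower, where 33.9% of all tested probes were called 18.9% lower and 15.0% higher. Since that contrast chose the genes, nothing is read from this count, from the number of ratios below 0 or from the median.

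**Figure D1:**
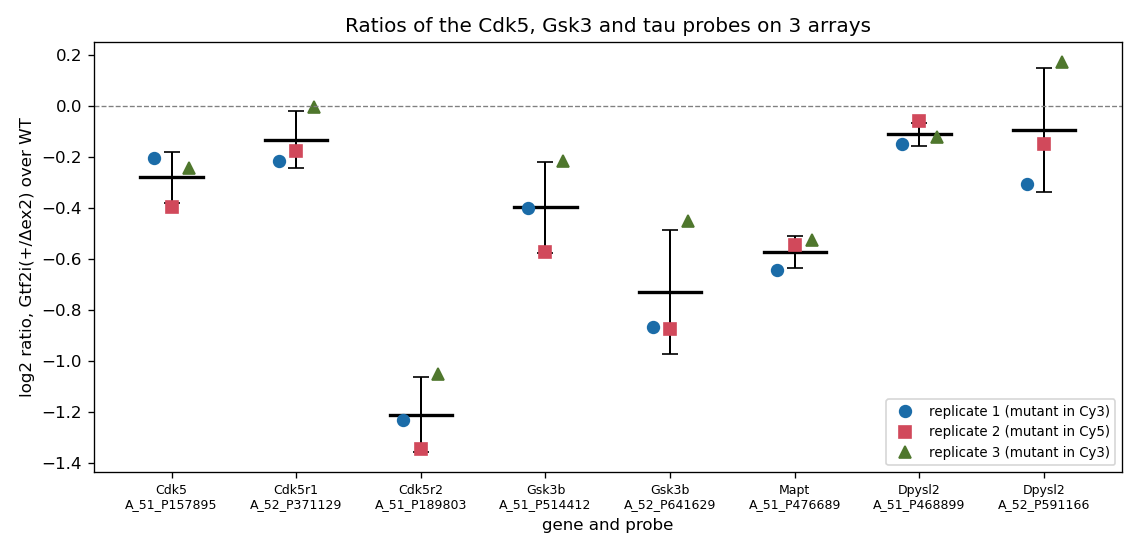
Log2 ratio of Gtf2i(+/Δex2) over WT (vertical axis) for each of the 8 probes (horizontal axis); symbols are the 3 arrays, the thick bar is their mean and the error bar 1 SD. Cdk5r2 lies below -1 on every array, Mapt has its arrays within a narrow band, and the probe A_52_P591166 of Dpysl2 is the one that crosses 0.

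Cdk5, the kinase, had intensities of 528.5, 502.5 and 620.5 in mutant cortex on replicates 1, 2 and 3, against 608.5, 661 and 734 in WT cortex at probe A_51_P157895. Within each array the mutant channel was the lower one, but the mutant value of replicate 3 lay above the WT value of replicate 1, so the genotypes overlapped across arrays. The log2 ratios were -0.20, -0.40 and -0.24, with a mean of -0.28 ± 0.10 (SD, n = 3), or 82.3% of wild type.

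Cdk5r1, which encodes the activator p35, was bright. Its probe A_52_P371129 read 9331, 11040 and 11460 in mutant cortex, against 10840, 12470 and 11500 in WT cortex. The genotypes overlapped, and on replicate 3 the channels were nearly equal. The log2 ratios of -0.22, -0.18 and -0.005 averaged -0.13 ± 0.11 (SD, n = 3), or 91.3% of wild type, and the probe was not called.

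Cdk5r2, which encodes the activator p39, differed most. Its only probe, A_51_P189803, read 1050, 1158 and 1573 in mutant cortex, against 2469, 2943 and 3264 in WT cortex. The highest mutant value lay below the lowest WT value, and every spot was flagged reliable and present in both channels. The log2 ratios were -1.23, -1.35 and -1.05, with a mean of -1.21 ± 0.15 (SD, n = 3), which put the mutant signal at 42.5%, 39.3% and 48.2% of wild type on the 3 arrays. The mean ratio was number 14 from the lowest of all 27530 tested probes, or from the highest if the sign of all ratios is turned. Within each array the ratio of Cdk5r2 differed from that of Cdk5r1 by -1.02, -1.17 and -1.05 log2 units, a mean of -1.08 ± 0.08 (SD, n = 3), and from that of Cdk5 by a mean of -0.93 ± 0.11. The activators had unequal ratios on the same arrays, and a single probe stands behind each.

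The promoters of Cdk5r2 and Gsk3b, the genes with the lowest ratios, are shown so that the sequence around their starts can be read beside the values. Both are from RefSeq on GRCm38.p6 and run from 250 bases before to 50 bases after the gene's start, 5′ to 3′ on the plus strand; promoters of 3 of the 7 genes were matched, the third being Gsk3a. Capitals mark the E-box CANNTG, an element that TFII-I has been reported to bind in human cells, and the CCAAT box, which reads ATTGG on the other strand. The E-box reads the same on both strands, and no match overlaps another. Cdk5r2 lies at chr1:74854779-74855078 and Gsk3b at chr16:38088751-38089050.
Cdk5r2: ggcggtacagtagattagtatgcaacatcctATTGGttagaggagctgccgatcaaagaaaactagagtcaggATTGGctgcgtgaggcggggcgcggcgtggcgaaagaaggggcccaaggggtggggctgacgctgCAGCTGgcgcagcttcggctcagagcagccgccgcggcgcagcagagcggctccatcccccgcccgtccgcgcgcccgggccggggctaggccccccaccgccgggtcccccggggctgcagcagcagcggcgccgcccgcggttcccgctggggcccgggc
Gsk3b: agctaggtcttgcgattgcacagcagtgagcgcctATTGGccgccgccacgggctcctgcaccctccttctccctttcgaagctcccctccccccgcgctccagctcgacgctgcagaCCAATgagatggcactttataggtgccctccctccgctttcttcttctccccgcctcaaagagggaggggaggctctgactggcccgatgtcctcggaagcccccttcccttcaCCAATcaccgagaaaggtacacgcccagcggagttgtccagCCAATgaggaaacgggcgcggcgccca

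The Cdk5r2 promoter held 1 E-box, 112 bases before the start, and 2 CCAAT boxes, 219 and 177 bases before it. The Gsk3b promoter held 4 CCAAT boxes and 0 E-boxes. These CCAAT boxes began 215, 132 and 18 bases before the start and, past the start, at base 24. The Gsk3a promoter held 1 CCAAT box and 0 E-boxes. Of 32851 mouse promoters of this length, 72.3% held an E-box, 37.4% a CCAAT box and 27.2% both. The sequence of Cdk5r2 was 71.7% G and C and that of Gsk3b 63%, beside a median of 52.7% over all promoters. These matches describe the letters in the window and nothing about binding.

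Gsk3b, which encodes glycogen synthase kinase 3 beta, read lower at both probes, but not equally. Probe A_52_P641629 had intensities of 225.3, 227.6 and 298.3 in mutant cortex, against 410.6, 417.9 and 407.7 in WT cortex. Replicates 1 and 2 were alike, replicate 3 was nearer to wild type, and the genotypes did not overlap. The mutant channel was called marginal on replicates 1 and 2 and present on replicate 3, and the WT channel was called present on all 3 arrays. Its log2 ratios of -0.87, -0.88 and -0.45 averaged -0.73 ± 0.24 (SD, n = 3), or 60.2% of wild type.

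The other Gsk3b probe, A_51_P514412, was dimmer and was called present in neither genotype on any array. It read 169.5, 148.8 and 200.8 in mutant cortex, against 223.8, 221.3 and 233.3 in WT cortex, and all these channels were called marginal except the mutant channel of replicate 2, which was called absent. Its log2 ratios were -0.40, -0.57 and -0.22, a mean of -0.40 ± 0.18 (SD, n = 3), or 76% of wild type. The ratio of the brighter probe differed from that of the dimmer one by -0.47, -0.30 and -0.23 log2 units on the 3 arrays. With the negative control level subtracted, the probes read -0.99 and -0.69, so the size of the ratio of these probes depends on the background taken off. Both probes carry the same transcript accession, and their places on it are not stated in the files.

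**Figure D2:**
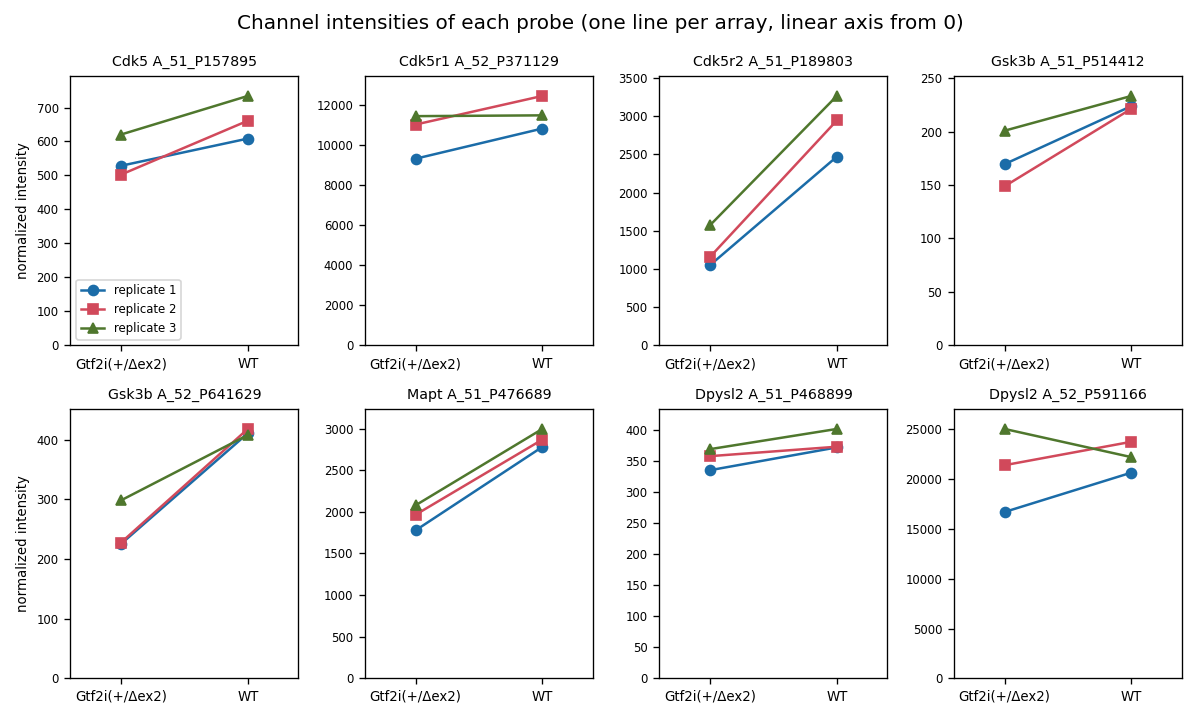
Normalized channel intensity (vertical axes, linear from 0) in Gtf2i(+/Δex2) cortex (left) and WT cortex (right), with 1 panel for each probe and 1 line for each array. The lines of Cdk5r2, Mapt and both Gsk3b probes climb toward WT on all 3 arrays, those of Cdk5r1 climb on replicates 1 and 2 and are flat on replicate 3, and the probe A_52_P591166 of Dpysl2 has 1 line, replicate 3, that falls toward WT.

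Mapt, the tau gene, had the most even ratios of the called probes. Probe A_51_P476689 read 1777, 1965 and 2078 in mutant cortex, against 2779, 2867 and 2995 in WT cortex. All mutant values lay below all WT values. The log2 ratios of -0.65, -0.55 and -0.53 averaged -0.57 ± 0.06 (SD, n = 3), or 67.2% of wild type, and 1.63% of all tested probes had a lower mean ratio, or a higher one if the sign of all ratios is turned.

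Dpysl2, whose product is a substrate of both kinases in axons, lay near 0 at both probes. Probe A_51_P468899 read 335.1, 357.7 and 369 in mutant cortex, against 371.8, 372.9 and 401.5 in WT cortex, a mean log2 ratio of -0.11 ± 0.05 (SD, n = 3). The lowest WT value lay just above the highest mutant value, and the probe was not called. The much brighter probe A_52_P591166 read 16710, 21410 and 25050 in mutant cortex, against 20660, 23760 and 22220 in WT cortex. Its log2 ratios of -0.31, -0.15 and 0.17 had a mean of -0.10 ± 0.24 (SD, n = 3), the direction differed between arrays, and the genotypes overlapped. Across the 8 probes the intensities of the genotypes did not overlap at 5, where 32.2% of all tested probes did not overlap; the 5 were not the 5 that were called, since Cdk5 was called and overlapped.

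**Figure D3:**
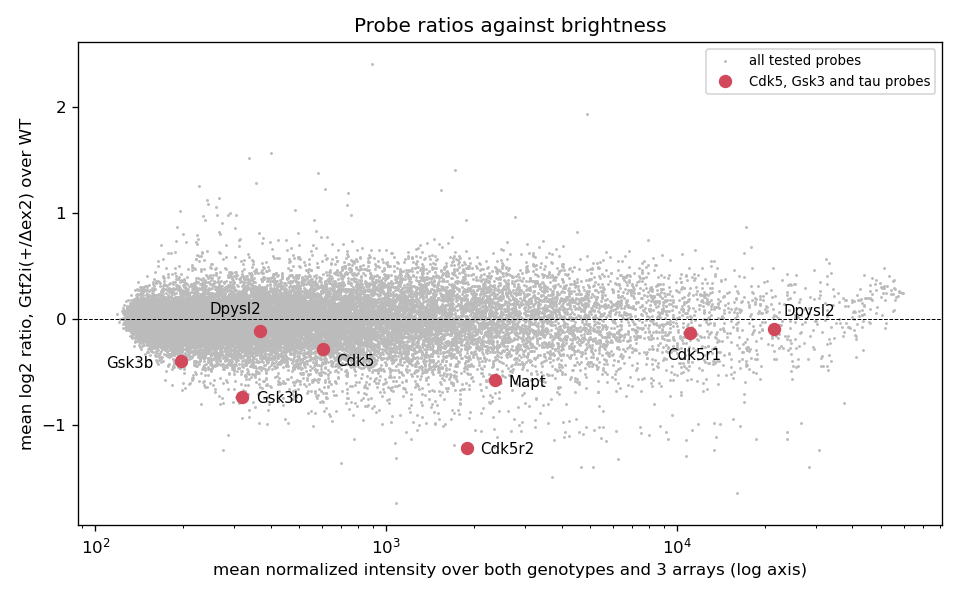
Mean log2 ratio of Gtf2i(+/Δex2) over WT (vertical axis) against mean intensity on a log axis, for all 27530 tested probes (grey) and the 8 probes of these genes (red). Cdk5r2 and Mapt lie among the brighter probes, with 86.6% and 89% of tested probes dimmer. The Gsk3b probes had 45.6% (A_52_P641629) and 23.5% (A_51_P514412) of tested probes dimmer. Cdk5r1 and 1 probe of Dpysl2 lie among the brightest.

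Replicate 3 gave the highest ratio of the 3 arrays at 6 of the 8 probes, and the share over all tested probes was not counted. The same array stood apart in some tissue markers, in both directions. The 4 tested thalamic markers (of 5 listed) averaged 0.06, 0.14 and 1.23 on replicates 1, 2 and 3, with summed intensities of 5509 to 7203 in mutant cortex and 2139 to 6004 in WT cortex. The 6 striatal markers averaged -0.32, -0.35 and 0.08, with sums of 11750 to 14150 in mutant cortex and 13970 to 14530 in WT cortex. The 6 cortical glutamatergic markers went the other way, averaging -0.26, -0.23 and -0.40 on replicates 1, 2 and 3. The part of these markers in the ratios was not tested. Without replicate 3, Cdk5r2 read -1.29, Gsk3b -0.87 and -0.49, Mapt -0.60, Cdk5 -0.30, Cdk5r1 -0.20 and Dpysl2 -0.11 and -0.23, and 7 of the 8 probes were called, with Cdk5r1 and the brighter Dpysl2 probe added. Without replicate 1 the count was 3: Cdk5 and the dimmer Gsk3b probe were no longer called.

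Markers of neurons and of other cell types were also lower in part, where 20.0% of named genes were called lower and 16.0% higher. The defining cortical glutamatergic markers Slc17a7 and Tbr1 were measured at mean intensities of 571.6 and 633.3, and none of the tested markers was at 0. Of the 6 cortical glutamatergic markers listed and tested, 4 fell and 0 rose, with summed intensities of 2828 to 3088 in mutant cortex and 3287 to 4133 in WT cortex. Of 6 general neuronal markers tested of 7 listed, 4 fell and 0 rose, with sums of 74280 to 92860 in mutant cortex and 69250 to 89840 in WT cortex. These counts use the brightest probe of each gene. That of Snap25 read 0.33 and was not called, while its other probes, at 0.28 and 0.23, were called higher (limma adjusted p = 0.0311 and 0.0104). The brightest Snap25 probe, at a mean intensity of 47660, made up most of the general neuronal sums. Its ratios of 0.58, -0.18 and 0.60 on replicates 1, 2 and 3 turned with the dyes. Glial markers fell too, in part: 3 of 5 tested astrocyte markers (Aqp4 at -0.78, Slc1a2 at -0.64 and Aldh1l1 at -0.46) fell and Gja1 rose by 0.39. The other Slc1a2 probe read -0.01 and was not called. Other Aqp4 probes read -0.07, not called, and -0.30, called lower. Astrocyte sums were 14500 to 19020 in mutant cortex and 14810 to 16620 in WT cortex, mostly from Slc1a3 (mean intensity 10540), which was not called. Of 5 microglial markers 3 fell and 0 rose, with sums of 2578 to 2703 in mutant cortex and 2693 to 2792 in WT cortex. Of 6 oligodendrocyte markers 2 fell and 0 rose, with sums of 51120 to 65540 in mutant cortex and 56490 to 76120 in WT cortex. Of 6 GABAergic markers 1 fell, and of 4 tested vessel markers 1 rose. Their part in the ratios of the Cdk5, Gsk3 and tau genes was not tested, and in whole tissue fewer cells of a type and less RNA per cell cannot be told apart.

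Around the 7 genes, 111 further genes in 6 lists were examined. These held regulators of Cdk5 with related kinases, substrates of Cdk5, regulators of Gsk3 with Wnt scaffold genes, and the other collapsin response mediators. The remaining lists held tau kinases, phosphatases and chaperones, and microtubule proteins. A gene was read at its brightest tested probe. Of 98 tested genes 34 fell and 8 rose (limma, adjusted p under 0.05), or 42.9%, where 36.0% of the 12721 named genes tested were called, 20.0% lower and 16.0% higher. Their median log2 ratio was -0.09, beside -0.007 over all named genes. The genes of the lists were brighter than most, with a median intensity of 1260 against 500, and in 4 bins of named genes of equal size, from dim to bright, 16.9%, 33.2%, 42.9% and 51.0% were called. In the same bins 6 of 13, 4 of 13, 12 of 24 and 20 of 48 list genes were called. The total of 42 called genes was 13 without replicate 1, 30 without replicate 2 and 44 without replicate 3.

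The list around Cdk5 held related kinases, the calpain system and Cdk5-binding proteins, so the count is not one of Cdk5 regulators alone. Of its 16 tested genes 5 fell and 2 rose, with a median of -0.06. Cdk14, Cdk16 and Cdk17 were the related kinases called. Cdk14, a cyclin Y-dependent kinase, fell by 0.35 on the log2 scale, Cdk16, a related kinase, by 0.33, the calpain subunit genes Capn2 by 0.27 and Capns1 by 0.22 (limma adjusted p = 0.00434, 0.0149, 0.00769 and 0.0186). The 2 rises, named after their values were seen, were Cdk17 (0.29) and Cast (0.15), which encodes calpastatin, the inhibitor of calpain (limma adjusted p = 0.0216 and 0.0386); the other Cast probe read 0.04 and was not called. The 7 calls became 1 without replicate 1 and 3 without replicate 2; of the genes named here, Cdk14 was called under both, Capn2 and Cdk16 were lost without replicate 1, and Capns1, Cdk17 and Cast were lost under both.

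Of 18 tested genes for Cdk5 substrates, 5 fell and 1 rose, with a median of -0.14. Wasf1, which drives actin branching, read -0.59 ± 0.09, the synaptic vesicle gene Syn1 -0.56 ± 0.03 and Dnm1, the dynamin of vesicle recycling, -0.52 ± 0.10 (SD, n = 3; limma adjusted p = 0.00259, 0.00214 and 0.00335). The focal adhesion kinase gene Ptk2 rose by 0.24 ± 0.04 (SD, n = 3; limma adjusted p = 0.00932). Ptk2 was not called without replicate 1 (limma adjusted p = 0.101). The other probe of Syn1 read -0.22 and was called lower, and that of Ptk2 read 0.09 and was not called. Cask, named after its values were seen, read -0.02 at its brightest probe and was counted as not called. Its other probe read 0.47 and was called higher (limma adjusted p = 0.00336). The list had 3 calls without replicate 1 and 10 without replicate 3.

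The other collapsin response mediators did not share one direction. Dpysl3 fell by 0.44 on the log2 scale with -0.53, -0.59 and -0.20 on the 3 arrays, and Dpysl4 rose by 0.14 (limma adjusted p = 0.0148 and 0.0449). Crmp1 read 0.02 and Dpysl5 0.03, neither called. Both calls were lost without replicate 1 or without replicate 2, and 1 was left without replicate 3.

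The list around Gsk3 held regulators, Wnt scaffold genes and also genes whose products Gsk3 phosphorylates. Of its 18 tested genes 2 fell and 1 rose, or 16.7% called, with a median of -0.05. Axin1, the scaffold that holds Gsk3 to beta-catenin, fell by 0.27 ± 0.10, the kinase gene Akt2 fell by 0.19 ± 0.10, and the casein kinase gene Csnk1e rose by 0.18 ± 0.10 (SD, n = 3; limma adjusted p = 0.0139, 0.0406 and 0.0471). The other probe of Akt2 read -0.14 and that of Csnk1e 0.01, and neither was called. Eif2b5, a translation factor subunit that Gsk3 phosphorylates, read -0.10 and was not called. Without replicate 1 none of the 18 was called; Akt2 was also lost without replicate 2 and Csnk1e without replicate 3 (limma adjusted p = 0.116 and 0.111).

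Among tau kinases, phosphatases and chaperones, 12 of 23 tested genes fell and 2 rose, or 60.9% called, with a median of -0.19. Hspa8, a chaperone that binds tau, read -0.48 ± 0.05 and Camk2a, a calcium-dependent kinase, -0.44 ± 0.07. Ppp2cb, a catalytic subunit of protein phosphatase 2A, read 0.37 ± 0.05 and the microtubule affinity kinase gene Mark1 0.32 ± 0.03 (SD, n = 3 for each; limma adjusted p from 0.00274 for Hspa8 to 0.00462 for Mark1). Every other tested probe of Hspa8 (-0.37), Camk2a (-0.19) and Ppp2cb (0.29) was called in the same direction. Without replicate 1 the 14 calls became 6, and Mark1 was lost (limma adjusted p = 0.0539).

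Of 19 tested genes for microtubule proteins, 9 fell and 1 rose, with a median of -0.12. The stathmin genes Stmn1 (-0.44 ± 0.13) and Stmn3 (-0.44 ± 0.03), whose products bind tubulin dimers, fell, as did the tubulin gene Tuba4a (-0.42 ± 0.02) and Map6 (-0.32 ± 0.08), which makes microtubules resist cold (SD, n = 3; limma adjusted p = 0.00577, 0.00282, 0.00293 and 0.00676). Other probes of Stmn1, Tuba4a and Map6 ran from -0.39 to -0.19. The list had 3 calls without replicate 1, and Map6 was lost then (limma adjusted p = 0.0633).

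**Figure D4:**
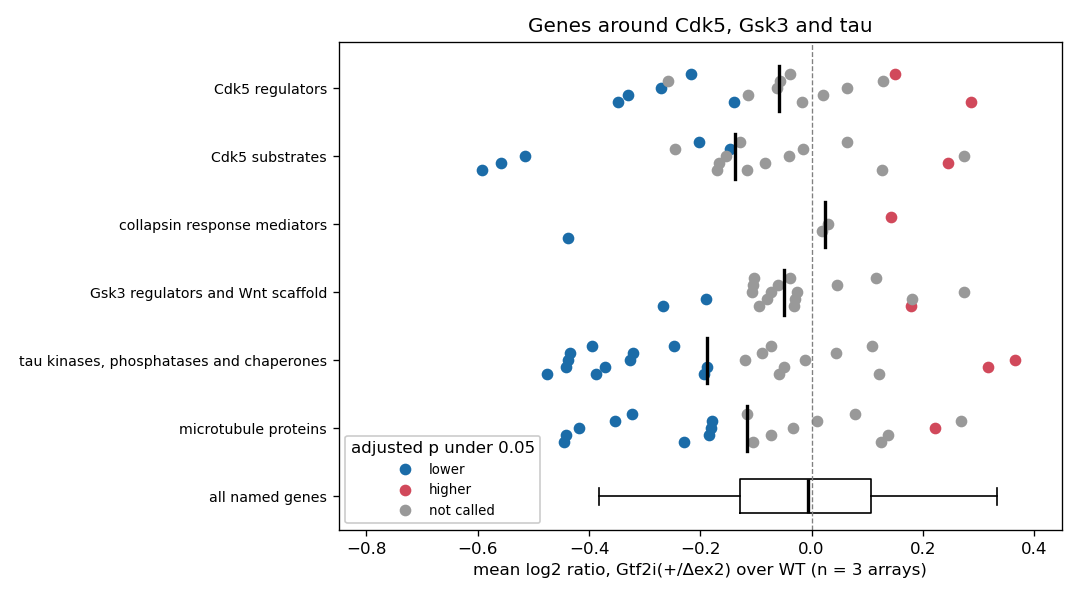
Mean log2 ratio of Gtf2i(+/Δex2) over WT over 3 arrays (horizontal axis) for the tested genes of each list (rows), coloured by their call, with the list's median as a black bar; the box of all 12721 named genes spans percentiles 25 to 75 and its whiskers percentiles 5 to 95. Lower calls outnumber higher calls in every list but the collapsin response mediators, with 1 of each.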

How the data were processed

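The 3 arrays were scanned with GenePix, per the deposited readme. The authors deposited, for each spot, linear intensities in 2 channels, background-subtracted, normalized (the sources used here name no method) and corrected for the dye swap, and a log2 ratio of them with repeated spots collapsed. The value table deposited by the authors holds a score per spot, a signed fold equal to the arrays' fold column at every spot, with medians of -1.01, -1 and 1; ratios under 1 are written as minus their inverse. RNA was amplified from 500 ng, with an RNA integrity number of at least 7, per the labels' protocols. The labels do not state the probes' genome build.

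Spots of one probe were averaged as log2 values. Accessions were matched without versions to RefSeq genes on GRCm38.p6, which named 21445 of 41174 probes. Probes flagged reliable on at least 2 arrays, meaning a foreground above 2 times background, were tested. An intercept fit (lmFit, then eBayes) in limma 3.58.1 set each mean ratio against 0, with p-values adjusted by Benjamini-Hochberg over all 27530 probes and a threshold of 0.05. The fit, run under R 4.3.3 with version 1.17.8 of data.table and jsonlite 2.0.0, was tested on simulated data. Figures used matplotlib 3.10.9, pandas 2.3.3 and numpy 2.4.6 in Python 3.11.15.

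The genes and lists were chosen with earlier results of these data known. In each list, up to 4 genes with the smallest p at the brightest probe are named; exceptions are stated. The motifs were chosen after the promoters were read. Alternatives covered normalization, centring, background, the authors' log2 ratio, the dim-probe filter, a dye term, array weights, replicates 1 and 2 counted as 1, the call rule, the probe per gene and leaving out each replicate.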

Additional observations from a re-analysis of the deposited data

How the results depend on the processing

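Leaving out each replicate gave 2409 to 9885 called probes over the whole table, 13 to 44 called genes in the lists around Cdk5, Gsk3 and tau, and 3 to 7 called probes among the 8 of the genes themselves; each such fit rests on 2 arrays. The authors' rule of a limma B statistic above 0 gave 2661 probes, 15 list genes and 3 of the 8 probes (Cdk5r2, Mapt and the brighter Gsk3b probe). Taking each gene by its probe with the smallest p gave 50 list genes, 40 lower and 10 higher. That was 51% of the 98 tested, where 40.7% of named genes were called by the same rule. Counting replicates 1 and 2 as 1 gave 5120 probes and 24 list genes, and array weights, which put a weight of 5.84 on replicate 1 against 0.37 and 0.46, gave 18617 probes, 77 list genes and 8 of 8 probes. Of 96 mean ratios of the 8 probes over 12 alternatives, 94 moved by less than 1 SD. The others were the Gsk3b probes with the negative control level subtracted (-0.69 and -0.99). Nothing is read from this count, since much of it was set in advance. Changing the dim-probe filter leaves a probe's ratio as it was. Leaving out 1 of 3 arrays, or averaging replicates 1 and 2, cannot move a mean by 1 SD. Cdk5r2, Mapt and Gsk3b A_52_P641629 were called under all 12 alternatives. The brighter Dpysl2 probe changed sign without replicate 1 (0.01). The ratio within each array pairs the genotypes in every fit, so no further fit with a replicate block was made.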

Other observations

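The genes whose 3 ratios lay closest to those of Cdk5r2, by Euclidean distance over 3 arrays, were Tlx2, a homeobox gene (distance 0.24 log2 units; -1.13, -1.44 and -0.86), Ifitm3, an interferon-induced membrane protein gene (0.27), and Ms4a19 (0.29), each with 1 tested probe. For the brighter Gsk3b probe they were Arhgap32 (0.04 log2 units; -0.85, -0.85 and -0.48), the oviduct glycoprotein gene Ovgp1 (0.06) and the ubiquitin ligase gene Ubr2 (0.06). Ubr2 had 4 tested probes, which ran from -0.70 to 0.34.

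The nearest named and tested genes on either side of the 7 genes in the RefSeq order were 14 genes, of which 3 fell and 3 rose, or 42.9% (limma, adjusted p under 0.05), where 36.0% of named genes were called. Beside Cdk5r2, Wnt10a rose by 0.19 (limma adjusted p = 0.0336) and Fev read 0.02. Beside Gsk3b, Popdc2 read 0.02 and was not called. The neighbours of Mapt, Crhr1 at 0.12 and Myl4 at 0.02, were not called.

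Tuba1a, an alpha tubulin gene of the microtubule list chosen here after its values were seen, turned with the dyes: its log2 ratios were 0.92 on replicate 1, -0.81 on replicate 2 and 0.69 on replicate 3, at a mean intensity of 57580, and it was not called (0.27 ± 0.94, SD, n = 3).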
